A study of Mus musculus with 12 samples.

Results

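The genes of the renin-angiotensin system were examined in whole hearts of mice after acute myocardial infarction (AMI). The members were chosen by symbol, as 9 genes among the 53801 in the deposited tables: *Agt*, *Ren1*, *Ace*, *Agtr1a*, *Agtr1b*, *Agtr2*, *Mas1*, *Atp6ap2*, and *Agtrap*. RNA of 12 C57BL/6N hearts was sequenced, 4 after sham surgery, 4 on day 1 after AMI, and 4 on day 7 after AMI. AMI was made in adult males by permanent ligation of the left anterior descending coronary artery under isoflurane and ventilation. For the sham group the labels state neither the time of harvest nor the steps of the operation, they name no altered gene in any group, and infarcted and spared tissue were not separated.

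In this system renin, a protease known from the kidney, cleaves angiotensinogen (*Agt*) to angiotensin I, and ACE, a peptidase on the surface of endothelial cells, trims angiotensin I to angiotensin II. Angiotensin II acts mainly through the AT1 receptor, a Gq-coupled receptor that in mice is encoded by a pair of genes, *Agtr1a* and *Agtr1b*, and through the AT2 receptor (*Agtr2*), which often opposes it. A shorter angiotensin peptide acts on the MAS receptor (*Mas1*). *Agtrap* encodes a protein that binds the AT1 receptor and promotes its internalization, and *Atp6ap2* encodes the prorenin receptor, which is also an accessory subunit of the vacuolar proton pump (V-ATPase). Inhibitors of ACE and blockers of the AT1 receptor are standard drugs after infarction.

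The AT1 receptor genes come first, because one of them had no counts and the other many, and that comparison rests on telling their reads apart. *Agtr1a* lies on chromosome 13 (chr13:30336441-30382867, plus strand, GRCm38) and *Agtr1b* on chromosome 3 (chr3:20314473-20367177, minus strand). In the GENCODE M21 transcripts their coding sequences were both 1077 bases long, aligned without gaps, and were identical at 90.8% of positions. The most alike stretch of 150 bases, the length of a read, is shown from base 259 to base 408 of the coding sequence, counted from 1 at the start codon, with the 5 bases that differ in capitals.
Agtr1a: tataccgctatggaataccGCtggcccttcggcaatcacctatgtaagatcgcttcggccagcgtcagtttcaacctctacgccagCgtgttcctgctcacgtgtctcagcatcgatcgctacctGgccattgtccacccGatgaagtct
Agtr1b: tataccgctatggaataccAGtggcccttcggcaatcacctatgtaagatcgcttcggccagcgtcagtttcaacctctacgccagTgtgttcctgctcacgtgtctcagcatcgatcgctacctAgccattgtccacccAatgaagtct
None of the 928 stretches of 150 coding bases was free of differences between the genes, and the number of differences ran from 5 to 25. No stretch of 75 bases was shared either, and the longest run in common was 66 bases.

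*Agtr1b* had 0 counts in 12 of 12 libraries, against 9744 counts in all for *Agtr1a*. *Agtr2* had 6 counts in all, at most 1 per library, and 6 of 12 libraries had none. *Ren1* had 6 counts in all, with 1 and 2 counts in Sham replicates 1 and 4, 3 counts in Day 1 AMI replicate 2, and none in the other 9 libraries. These 3 members were at the floor of 3 counts or fewer in every library, which is between 0.0895 and 0.156 CPM (counts scaled to the library size times its TMM factor). They were below the filter for low counts, and no fold change (FC) is given. Renin, the AT2 receptor, and the second AT1 receptor were thus not detectable above this floor in heart RNA at a depth of 23204551 to 32166517 counts per library, which says nothing of renin protein arriving with blood. The floor covers counting error only.

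The other 6 members were above the floor in 12 of 12 libraries. They were tested with edgeR's quasi-likelihood test among 15306 genes, on counts scaled by the TMM method, and a gene was called changed at an FDR below 0.05 (false discovery rate, after Benjamini and Hochberg). On day 1 after AMI, 2 of 6 were higher than in sham hearts (*Agt* and *Atp6ap2*), beside 22% of all genes tested, and 2 were lower (*Agtr1a* and *Agtrap*), beside 19.9%. None of them reached a FC of 2 or greater in edgeR on day 1, where 7.79% of all genes were higher and 2.98% lower by this rule. The count was also 0 in DESeq2, but it was 1 (*Agt*) on library sizes alone, in limma on log2(TPM + 0.1), and without Sham replicate 2. On day 7 after AMI, 2 members were higher than in sham (*Ace* and *Atp6ap2*), beside 30.9% of all genes, and 3 were lower (*Agt*, *Agtr1a*, and *Agtrap*), beside 28.4%. The lower calls of *Agtrap* on both days and of *Agtr1a* on day 7 were lost on other scales, and *Agtrap* reversed on day 7. At a FC of 2 or greater there was 1 higher (*Ace*), beside 15.3% of genes, and 1 lower (*Agt*), beside 5.88%. Between day 7 and day 1, 2 members were higher on day 7 (*Ace* and *Atp6ap2*), beside 24.2% of genes, and 1 was lower (*Agt*), beside 22.8%. The same genes made up the 1 higher and the 1 lower at a FC of 2 or greater, where the background was 8.55% and 2.69%. The comparisons with sham share the 4 sham hearts. In whole hearts, fewer cells of a type and less RNA per cell cannot be told apart.

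The scale on which the libraries are compared moves every member. The TMM factors of the sham libraries were 0.781 to 0.917, those of day 1 were 1.01 to 1.06, and those of day 7 were 1.10 to 1.17, and mitochondrial transcripts took 17.9% to 27.4% of the counts in sham hearts against 12.1% to 19.2% after AMI. With TMM the median log2 FC of all genes tested was -0.01 on day 1 and 0.03 on day 7 against sham. Without TMM it was 0.26 and 0.43 on library sizes alone, and 0.23 and 0.44 in log2(TPM + 1). Changes below are relative to the TMM scale unless TPM is named, and a call that another scale ended is named with it. Of all genes tested, 41.1% were higher and 6.93% lower on day 1 on library sizes alone, and 53.8% and 10.8% on day 7. In limma on log2(TPM + 1) these shares were 40.3% and 4.82% on day 1, and 61.6% and 6.68% on day 7. The plot of the 3 scales shows all 6 members higher on library sizes than with TMM, as the median of all genes was, while *Mas1* on day 1 went back to -0.35 in log2(TPM + 0.1) as the median rose to 0.31.

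**Figure D1:**
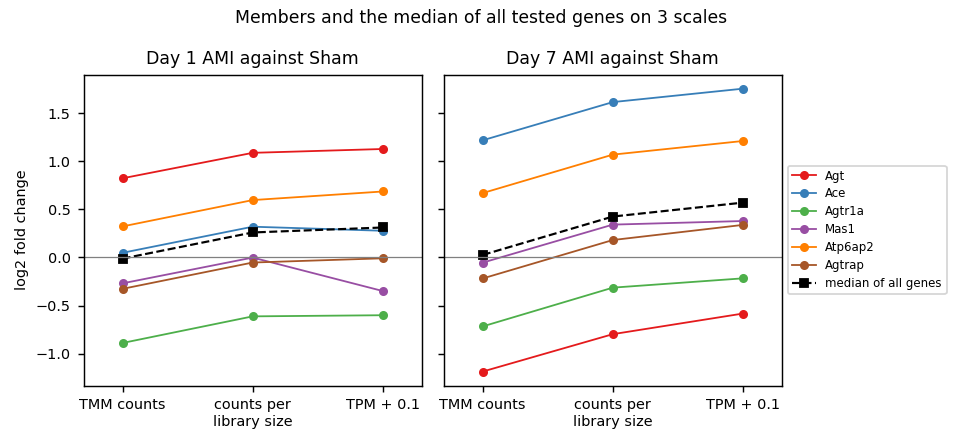
Log2 FC of the 6 tested members (colored lines) and median log2 FC of all tested genes (black dashed line) against sham on day 1 (left) and day 7 (right), for TMM-scaled counts, counts on library sizes alone, and TPM + 0.1. On day 7 the median of all genes moves from 0.03 to 0.43 and 0.57, and *Agtrap* crosses 0 from -0.22 to 0.18 and 0.34 while it stays under that median.

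*Agt*, the only precursor of the angiotensin peptides, rose on day 1 and was lower than in sham on day 7. The gene has 5 exons on chromosome 8 (chr8:124556534-124569706, minus strand, GRCm38). In TPM, which is per length of transcript, the 4 sham hearts held 3.2, 5.52, 3.22, and 2.9, the day 1 hearts 5.79, 10.8, 7.59, and 8.37, and the day 7 hearts 2.71, 2.02, 2.51, and 2.26. Every day 7 heart was below every sham and day 1 heart, and on the TMM scale Sham replicate 2 (7.72 CPM) was above the lowest day 1 heart (7.07 CPM). Day 1 hearts were 1.77-fold above sham (log2 FC = 0.82, SE 0.21, adjusted p = 0.00563), and the exact two-sided permutation test of 4 hearts against 4 gave p = 0.0571, where 0.0286 is the smallest it can give. Day 7 hearts were 2.27-fold below sham (log2 FC = -1.19, SE 0.22, adjusted p = 0.000319; exact permutation p = 0.0286). From day 1 to day 7 the decrease was 4.02-fold (log2 FC = -2.01, SE 0.21, adjusted p = 7.09e-06; exact permutation p = 0.0286), the largest change between groups of any tested member. Without Sham replicate 2 the log2 FC was 1.04 on day 1 and -0.98 on day 7, on the other side of 2-fold in both. On library sizes alone it was 1.09 on day 1 and -0.80 on day 7, also on the other side of 2-fold, and in log2(TPM + 1) without the filter the day 7 adjusted p was 0.0879 in limma. Fat cells also make angiotensinogen. The sum of 8 adipocyte markers was 82 to 89.5 CPM in sham hearts, 46.2 to 56.3 on day 1, and 36.2 to 49.8 on day 7. Of 5 markers tested, 1 was lower on each day, beside 19.9% of all genes on day 1 and 28.4% on day 7. The part of fat cells in *Agt* was not tested.

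*Ace* was level with sham on the TMM scale on day 1 and more than doubled by day 7. The gene lies on chromosome 11 (chr11:105967945-105989964, plus strand), with up to 25 exons in a transcript. Sham hearts had 16.9, 19.5, 18.9, and 19.7 TPM, day 1 hearts 18.9, 26.3, 24.3, and 22.1, and day 7 hearts 65.9, 62, 64, and 61.7. The 4 day 7 hearts lay close together, and all were above the other 8. The FC on day 7 was 2.33 against sham (log2 FC = 1.22, SE 0.09, adjusted p = 1.24e-07; exact permutation p = 0.0286) and 2.25 against day 1 (log2 FC = 1.17, SE 0.09, adjusted p = 4.45e-07; exact permutation p = 0.0286). On day 1 the log2 FC was 0.05 (SE 0.09, adjusted p = 0.688), with a 95% interval from -0.14 to 0.24. The day 1 value passed the test on library sizes alone (log2 FC = 0.32, adjusted p = 0.0156) and in limma on log2(TPM + 1) (0.27, adjusted p = 0.0388), where it was near the median of all genes. An antisense gene, *Gm11651*, covers 5.58% of the exon bases of *Ace*, and it had 2 counts in all over 12 libraries.

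Markers of endothelial cells, which carry ACE, moved in the same direction on day 7. The summed level of 11 endothelial markers ran from 1400 to 1632 CPM in sham hearts, from 1144 to 1203 on day 1, and from 1703 to 1880 on day 7, and none of the markers was at 0. Against sham, 5 of 11 were lower on day 1 and none higher, beside 19.9% and 22% of all genes. On day 7, 7 were higher and 2 lower, beside 30.9% and 28.4%, with a median log2 FC of 0.33 beside 1.22 for *Ace*. The sum of 11 fibroblast markers was 2222 to 2743 CPM in sham hearts, 1903 to 2596 on day 1, and 5240 to 11117 on day 7. Beside the same shares of all genes, 5 were higher and 4 lower on day 1, and 9 higher and 2 lower on day 7. Their median log2 FC on day 7 was 0.69. The part of these cells in the rise of *Ace* was not tested.

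The regions before the start of *Agt* and *Ace* are shown because these are the members that changed by 2-fold or more, in opposite directions. Each line gives the 250 bases before the RefSeq start on GRCm38.p6, read along the strand of the gene, for *Agt* at chr8:124569707-124569956 (minus strand) and for the longer form of *Ace* at chr11:105967698-105967947 (plus strand). Capitals mark the TATA box and the STAT motif in *Agt*, and the TATA box on the opposite strand and the GC boxes in *Ace*.
Agt: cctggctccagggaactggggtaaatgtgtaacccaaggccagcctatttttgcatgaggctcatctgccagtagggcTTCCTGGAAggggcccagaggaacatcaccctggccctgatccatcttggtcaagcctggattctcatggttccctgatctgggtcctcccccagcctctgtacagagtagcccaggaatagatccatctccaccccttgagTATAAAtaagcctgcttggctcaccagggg
Ace: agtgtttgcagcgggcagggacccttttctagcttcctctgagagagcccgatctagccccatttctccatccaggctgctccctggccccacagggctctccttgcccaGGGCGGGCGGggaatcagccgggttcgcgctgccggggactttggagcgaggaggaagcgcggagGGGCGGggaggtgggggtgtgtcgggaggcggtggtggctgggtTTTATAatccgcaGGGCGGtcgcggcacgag
The *Agt* region held TATAAA at 30 bases before the start, and TTCNNNGAA, the motif of STAT factors, at 172. In *Ace* there were 4 matches to the GC box, GGGCGG, at 140, 136, 75, and 18 bases before the start, the first 2 overlapping, and TATAAA only on the opposite strand, at 31. Of all 32851 RefSeq promoters of 300 bases, 13.6% held TATAAA, 8.3% TTCNNNGAA, and 35.7% GGGCGG on either strand. The search also covered CCAAT, the TEAD motif GGAATG, the C/EBP motif TTGCNNAA, and the motifs of AP-1, NF-κB, and the glucocorticoid receptor on both strands, none of which was in either region. These matches describe letters only, and binding was not measured.

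*Agtr1a*, the AT1 receptor gene of the heart, was lower on day 1 and less uniformly so on day 7. The values were 26, 24.1, 32.1, and 30.9 TPM in sham hearts, 18.4, 16.2, 21, and 18.6 on day 1, and 16.3, 31.1, 27.7, and 24.2 on day 7. Every day 1 heart was below every sham heart. Day 7 hearts spread over the range of both groups in TPM, with Day 7 AMI replicate 1 lowest and replicate 2 highest. On the TMM scale the 4 day 7 hearts, at 17.5 to 34.7 CPM, lay below the sham hearts, at 34.8 to 50.3 CPM. The decrease on day 1 was 1.85-fold (log2 FC = -0.89, SE 0.18, adjusted p = 0.00132; exact permutation p = 0.0286), and it passed the test on each scale tried. On day 7 it was 1.64-fold (log2 FC = -0.72, SE 0.18, adjusted p = 0.00286; exact permutation p = 0.0286). That call was lost on library sizes alone (log2 FC = -0.31, adjusted p = 0.111) and in limma on log2(TPM + 1) (-0.21, adjusted p = 0.28). Between day 7 and day 1 the log2 FC was 0.17 (SE 0.18, adjusted p = 0.443), with a 95% interval from -0.20 to 0.55.

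Several cell types can carry the AT1 receptor, and their markers moved unequally. The sum of 11 cardiomyocyte markers was 105318 to 120760 CPM in sham, 63146 to 78475 on day 1, and 52789 to 62292 on day 7. Against sham 10 of 11 were lower on both days and none higher, beside 19.9% of all genes lower on day 1 and 28.4% on day 7. The sum of 11 pericyte and smooth muscle markers was 903 to 1032 CPM in sham hearts. It was 764 to 914 on day 1 and 953 to 1624 on day 7. Single markers went both ways on day 1, with 2 higher, 3 lower, and a median log2 FC of 0.24. On day 7, 7 were higher and 2 lower, with a median of 0.72. Of all genes 22% were higher and 19.9% lower on day 1, and 30.9% and 28.4% on day 7. Of 11 fibroblast markers, 5 were higher and 4 lower on day 1, and 9 were higher and 2 lower on day 7. The part of these cell types in the values of *Agtr1a* was not tested.

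*Mas1*, the gene of the MAS receptor, was the lowest of the tested members and did not pass edgeR's test in any comparison. It had 9 to 24 counts per library in sham hearts, 13 to 25 on day 1, and 17 to 25 on day 7, or 223 in all. The TPM values were 0.96, 0.48, 0.78, and 0.79 in sham, 0.44, 0.35, 0.71, and 0.83 on day 1, and 1.34, 0.66, 0.93, and 1.12 on day 7. Counts and TPM did not order the hearts alike: Sham replicate 1 had the fewest counts of its group and the highest TPM. The log2 FC was -0.27 (SE 0.34, adjusted p = 0.545) on day 1 and -0.05 (SE 0.33, adjusted p = 0.90) on day 7 against sham, and 0.22 (SE 0.33, adjusted p = 0.613) between day 7 and day 1. The last of these passed in limma on log2(TPM + 1) (0.35, adjusted p = 0.0474), but not on log2(TPM + 0.1) (0.73, adjusted p = 0.0557) or on log2(TPM + 1) without the filter (adjusted p = 0.0889). The 95% interval on day 7, from -0.77 to 0.66, leaves room for a change of more than 1.5-fold either way at this depth. The gene, on the minus strand of chromosome 17 (chr17:12841079-12868143), is overlapped by *Airn* on the opposite strand, and *Airn* had 158 to 407 counts per library. Their annotated exons do not overlap, but the strand of the counts is not given in the sources used here, and unspliced reads of the 2 genes could not be told apart.

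*Agtrap*, whose product draws the AT1 receptor into the cell, showed small differences whose direction depended on the scale. Sham hearts had 13.9, 16.1, 16.4, and 16.4 TPM, day 1 hearts 14.4, 14.3, 15.2, and 18.8, and day 7 hearts 20.1, 20.2, 18.6, and 20.6. On the TPM scale the day 7 mean was thus highest, though Day 1 AMI replicate 4 (18.8) was above Day 7 AMI replicate 3 (18.6). On the TMM scale the sham hearts, at 51.8 to 57.9 CPM, were above all AMI hearts, at 39.5 to 49.8 CPM. The log2 FC in edgeR was -0.33 on day 1 (SE 0.08, adjusted p = 0.00517) and -0.22 on day 7 (SE 0.08, adjusted p = 0.0296). On day 1 the call was lost on library sizes alone (log2 FC = -0.05, adjusted p = 0.665). The day 7 direction reversed there (0.18, adjusted p = 0.0999) and in limma on log2(TPM + 1) (0.32, adjusted p = 0.0102), and it was below the median of all genes on each of these scales. The day 7 call was also lost when Sham replicate 3, Sham replicate 4, Day 7 AMI replicate 3, or Day 7 AMI replicate 4 was left out, with adjusted p from 0.0581 to 0.0806, so no direction is given for *Agtrap* here.

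*Atp6ap2*, the prorenin receptor gene on the X chromosome (chrX:12587801-12617049, plus strand), rose at each step. Sham hearts had 9.31, 11.9, 9.73, and 10.7 TPM, day 1 hearts 15.4, 15.9, 15.6, and 20.4, and day 7 hearts 25.5, 26.3, 20.3, and 24.8. Every AMI heart was above every sham heart, and only Day 1 AMI replicate 4 reached into the day 7 range. Against sham the log2 FC was 0.32 on day 1 (SE 0.09, adjusted p = 0.0126; exact permutation p = 0.0286) and 0.67 on day 7 (SE 0.09, adjusted p = 2.75e-05; exact permutation p = 0.0286). Between the AMI groups it was 0.35 (SE 0.09, adjusted p = 0.0065), and here the exact permutation test gave p = 0.0571. The call held in edgeR, DESeq2, and limma and without any one heart, and on library sizes alone the day 7 value was 1.07, past 2-fold. Macrophages are rich in lysosomes, where the V-ATPase works. The sum of 11 macrophage markers was 338 to 534 CPM in sham, 597 to 857 on day 1, and 903 to 1372 on day 7. Against sham, 8 were higher and 0 lower on day 1, beside 22% and 19.9% of all genes. On day 7, 10 were higher and 1 lower, beside 30.9% and 28.4%. Between day 7 and day 1, 5 were higher and 1 lower, beside 24.2% and 22.8%. The part of macrophages in *Atp6ap2* was not tested.

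**Figure D2:**
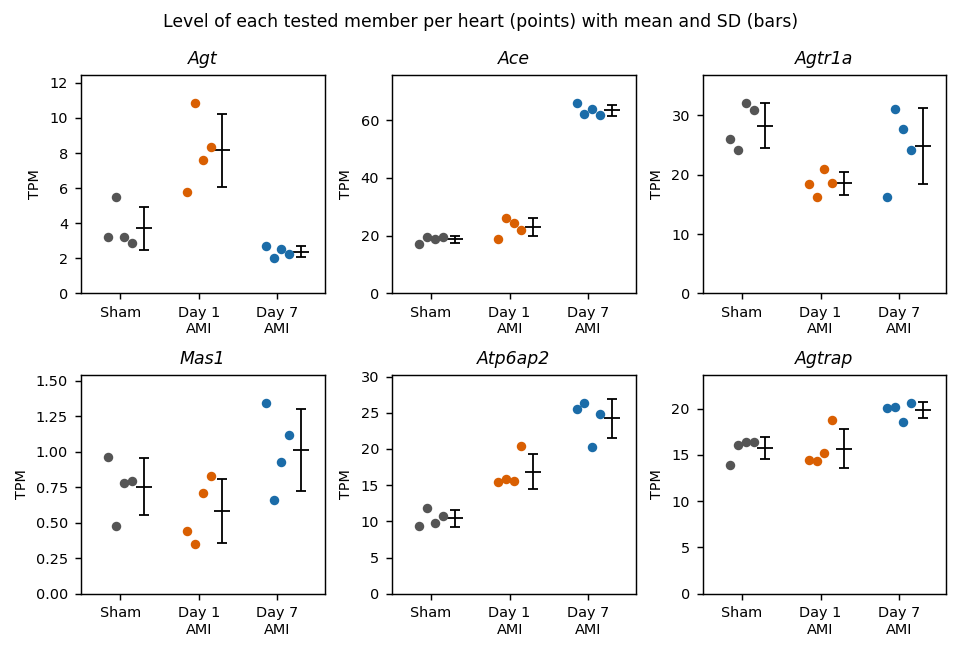
TPM of the 6 tested members in each heart (points, 4 per group) with the mean and SD of the group (bars); each panel has its own axis from 0. *Ace* separates day 7 from the other groups, *Agt* peaks on day 1, and *Atp6ap2* is lowest in sham hearts.

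The order of the members changed after AMI. In sham hearts the mean levels in TPM were 28.3 ± 3.81 (SD, n = 4) for *Agtr1a*, 18.8 ± 1.25 for *Ace*, 15.7 ± 1.2 for *Agtrap*, 10.4 ± 1.2 for *Atp6ap2*, 3.71 ± 1.22 for *Agt*, and 0.752 ± 0.2 for *Mas1*, and the hearts of each did not overlap those of the next. On day 1 *Ace* (22.9 ± 3.19), *Agtr1a* (18.6 ± 1.95), *Atp6ap2* (16.8 ± 2.4), and *Agtrap* (15.7 ± 2.1) overlapped in turn, and *Agt* (8.15 ± 2.1) and *Mas1* (0.583 ± 0.225) were apart below them. On day 7 *Ace* was first at 63.4 ± 1.94 TPM and apart from the rest. *Agtr1a* (24.8 ± 6.35), *Atp6ap2* (24.2 ± 2.67), and *Agtrap* (19.9 ± 0.863) overlapped, followed by *Agt* (2.38 ± 0.3) and *Mas1* (1.01 ± 0.289). The receptor gene was thus first in sham hearts and the ACE gene on day 7.

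**Figure D3:**
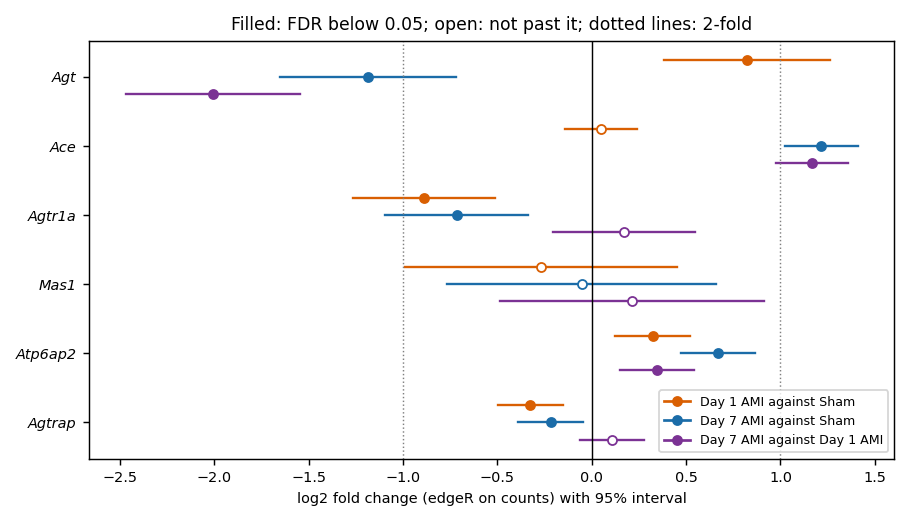
Log2 FC from edgeR with its 95% interval for the 6 tested members in the 3 comparisons; filled points passed a FDR below 0.05, open points did not, and dotted lines mark 2-fold. *Agt* lies on opposite sides of 0 on day 1 (0.82) and day 7 (-1.19), and *Ace* moves only on day 7 (1.22).

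The genes whose log2 CPM followed each member most closely over the 12 hearts, among 13434 genes, are given as a description. They were *Psmd3*, *Gpd1*, and *Atg13* for *Agt* (Pearson r = 0.97 for each), *Wdr19*, *Bend6*, and *Sh3d19* for *Ace* (r = 0.989, 0.988, and 0.988), and *Mblac2*, *Micu2*, and *Mospd1* for *Agtr1a* (r = 0.97, 0.97, and 0.95). For *Atp6ap2* they were *Itgb8*, *Ly9*, and *Brca1* (r = 0.963, 0.958, and 0.956), for *Agtrap* *Phlpp1*, *Gde1*, and *Ppfibp2* (r = 0.951, 0.949, and 0.945), and for *Mas1* *Cdh23*, *Zfp560*, and *Haghl* (r = 0.91, 0.88, and 0.878). The hearts fall into 3 groups, and the libraries share one scaling.

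Other enzymes that make or break angiotensin peptides were followed as a list of 22 genes, of which 18 were tested. Against sham, 4 were higher, 3 lower, and 11 did not pass the test on day 1, beside 22% higher and 19.9% lower of all genes, with a median log2 FC of -0.0065 beside -0.01. On day 7, 5 were higher, 2 lower, and 11 did not pass, beside 30.9% and 28.4%, with a median of 0.25 beside 0.03. The day 1 shares were near those of all genes. *Prcp*, a carboxypeptidase gene whose product can trim angiotensin II, rose 3.57-fold on day 7 (log2 FC = 1.84, adjusted p = 7.81e-08), from 4.31 to 6.55 TPM in sham hearts to 24.5 to 31.3. *Anpep*, which encodes aminopeptidase N, rose 2.92-fold (log2 FC = 1.55, adjusted p = 1.05e-08), from 6.14 to 7.18 TPM in sham to 20.6 to 40.1. *Mme*, the gene of neprilysin, which degrades natriuretic peptides as well as angiotensin I, was lower on both days (log2 FC = -0.98, adjusted p = 0.000643, and -1.05, adjusted p = 0.000149). It kept that call on library sizes but not in log2(TPM + 1), where the adjusted p was 0.12 and 0.177. *Xpnpep2*, an aminopeptidase gene, was 6.29-fold lower on day 1 (log2 FC = -2.65, adjusted p = 0.000468), from a sham mean of 0.839 CPM to 0.129 CPM, near the floor, and this did not hold in log2(TPM + 1) (adjusted p = 0.0568). On library sizes alone 11 of the 18 were higher and 1 lower on day 7, beside 53.8% and 10.8% of all genes, and in log2(TPM + 1) 13 were higher and 0 lower, beside 61.6% and 6.68%.

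Chymase, a mast cell protease that can make angiotensin II without ACE, was at low levels. The mean of *Cma1* was 0.865 CPM in sham hearts, 0.83 on day 1, and 1.21 on day 7, and that of *Mcpt4*, a related protease gene, was 0.951, 0.786, and 1.08 CPM. With TMM neither passed the test in a comparison (*Cma1* on day 7 against sham: log2 FC = 0.49, SE 0.37, adjusted p = 0.272). On day 7 against sham *Cma1* was higher on library sizes alone (0.89, adjusted p = 0.0417) and in log2(TPM + 1) (0.64, adjusted p = 0.0111), where *Mcpt4* also passed (0.48, adjusted p = 0.0355). *Cma1* passed between day 7 and day 1 in log2(TPM + 1) as well (0.52, adjusted p = 0.0448). The summed level of 9 mast cell markers, which include *Cma1* and *Mcpt4*, was 8.97 to 14.1 CPM in sham, 11 to 27.3 on day 1, and 25.3 to 32.3 on day 7. Of 6 markers tested, both of these among them, none was higher on day 1 and 1 on day 7, beside 22% and 30.9% of all genes. The median log2 FC of the tested markers was 0.37 on day 7.

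Among receptors and ligands of neighboring peptide systems, 8 genes were listed and 3 could be tested. *Apln*, the gene of apelin, a peptide that strengthens the heartbeat, was higher on day 1 (log2 FC = 1.48, adjusted p = 0.00251) and day 7 (1.34, adjusted p = 0.0026). Its receptor gene *Aplnr* was higher only on day 7, by 4.14-fold against sham (log2 FC = 2.05, adjusted p = 0.000172) and 5.10-fold against day 1 (2.35, adjusted p = 0.000119), at 65.7 to 77.4 TPM in day 7 hearts and 5.1 to 21.7 in sham. *Bdkrb2*, the gene of the bradykinin B2 receptor, was higher on both days (log2 FC = 1.28, adjusted p = 0.0387, and 1.22, adjusted p = 0.0348), and ACE also degrades bradykinin. Its level was low, with means of 0.545 CPM in sham hearts, 1.33 on day 1, and 1.27 on day 7. On day 1 its values overlapped those of sham, and the exact permutation test gave p = 0.114. The list thus had 2 of 3 higher on day 1 and 3 of 3 on day 7, beside 22% and 30.9% of all genes, and these counts were the same on library sizes and in log2(TPM + 1). On library sizes 41.1% of all genes were higher on day 1 and 53.8% on day 7, and in log2(TPM + 1) 40.3% and 61.6%. The kininogen and B1 receptor genes were below the filter, with at most 8 counts in a library.

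The mineralocorticoid branch, through which angiotensin II drives the adrenal to make aldosterone, was mostly below the filter, and 5 of 12 genes were tested. *Cyp11b2*, aldosterone synthase, had 0 counts in each library. Of the 5, 1 was higher and 2 lower on day 1, and 1 was higher and 3 lower on day 7, beside 22% and 19.9%, and 30.9% and 28.4%, of all genes. Their medians were -0.63 and -0.53. On library sizes alone 1 was higher and 1 lower on day 1, beside 41.1% and 6.93% of all genes. On day 7 on that scale 1 was higher and 2 lower, beside 53.8% and 10.8%. In log2(TPM + 1) the counts were 1 and 0, beside 40.3% and 4.82%, and 1 and 2, beside 61.6% and 6.68%. *Nr3c2*, the mineralocorticoid receptor gene, was lower on day 7 (log2 FC = -0.97, adjusted p = 6.74e-05) and on day 1 (-0.64, adjusted p = 0.0034), where the call was lost on library sizes alone (adjusted p = 0.0529) and in log2(TPM + 1) (adjusted p = 0.189). *Sgk1*, a kinase gene that the receptor induces, was lower on day 1 (-0.82, adjusted p = 0.000365) and day 7 (-0.53, adjusted p = 0.00369), but on day 7 it was at 0.08 in log2(TPM + 1), and neither call was kept on that scale, nor the day 7 call on library sizes alone (adjusted p = 0.45). *Hsd11b1*, which reactivates glucocorticoids, was lower on day 7 only (log2 FC = -1.51, adjusted p = 8.8e-06), and the change from day 1 to day 7 also passed (-1.25, adjusted p = 9.13e-05). *Star*, which carries cholesterol into mitochondria, rose 6.87-fold on day 1 (log2 FC = 2.78, adjusted p = 2.85e-07), from 0.91 to 1.14 TPM in sham hearts to 9.57 to 14.7, and was 2.56-fold above sham on day 7 (1.36, adjusted p = 5.85e-06).

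Genes that couple the AT1 receptor to its signals were tested as a list of 22, with 7 higher and 7 lower on day 1 and 13 higher and 4 lower on day 7. Of all genes 22% were higher and 19.9% lower on day 1, and 30.9% and 28.4% on day 7. Medians were -0.15 and 0.38, beside -0.01 and 0.03 over all genes. *Rcan1*, a calcineurin target that reads calcium signals, was higher on both days (log2 FC = 1.51, adjusted p = 0.000135, and 1.24, adjusted p = 0.00018). *Arrb2*, a β-arrestin gene, was higher on day 1 (1.03, adjusted p = 0.000253) and day 7 (1.51, adjusted p = 2.69e-06). *Prkcb*, a protein kinase C gene, was higher on day 1 (1.17, adjusted p = 0.000249) and 3.33-fold higher on day 7 (1.74, adjusted p = 2.33e-06). *Rgs5*, a brake on Gq known from pericytes, was lower on day 1 (-0.84, adjusted p = 0.000161) and did not pass on day 7 against sham (0.28). It did so on library sizes alone (0.68, adjusted p = 0.000174) and in log2(TPM + 1) (0.83, adjusted p = 3.97e-05), and with TMM day 7 was 2.18-fold above day 1 (1.12, adjusted p = 8.96e-06). On library sizes alone the split was 10 higher and 2 lower on day 1 and 18 higher and 1 lower on day 7, and in log2(TPM + 1) it was 11 and 2, and 19 and 0. Of all genes, 41.1% were higher and 6.93% lower on day 1 on library sizes alone, and 53.8% and 10.8% on day 7. In log2(TPM + 1) these shares were 40.3% and 4.82% on day 1, and 61.6% and 6.68% on day 7.

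Genes known to respond to angiotensin II, which also answer many other signals of injury, were higher in 15 of 17 cases on day 1 and in 17 of 17 on day 7, beside 22% and 30.9% of all genes. The list was chosen with earlier results of these data known, so these counts are a description and not a test of AT1 signaling. Medians were 1.99 and 2.66, beside -0.01 and 0.03 over all genes, and the counts were the same on each scale. On library sizes 41.1% of all genes were higher on day 1 and 53.8% on day 7, and in log2(TPM + 1) 40.3% and 61.6%. *Postn*, a matrix gene of activated fibroblasts, rose from 9.13 to 12.2 TPM in sham hearts to 754 to 1239 on day 7 (log2 FC = 5.99, adjusted p = 1.18e-10). *Nox4*, an NADPH oxidase gene, did not pass on day 1 (-0.11) and was 12.6-fold higher on day 7 (3.65, adjusted p = 5.42e-08). *Thbs1*, whose product activates TGF-β, was 35.6-fold higher on day 7 (5.15, adjusted p = 9.21e-06), and *Fn1*, the gene of fibronectin, 25.8-fold (4.69, adjusted p = 1.51e-07). *Spp1*, the gene of osteopontin, was higher on both days (7.94, adjusted p = 4.12e-06, and 7.41, adjusted p = 4.38e-07), from a sham mean of 0.456 CPM. These genes rose while *Agtr1a* was lower with TMM, a call that on day 7 was lost on library sizes alone and in log2(TPM + 1). Whether the receptor bears on these genes was not tested.

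The V-ATPase subunits were called in both directions, in shares near those of all genes. Of 19 tested subunit and accessory genes, 4 were higher and 3 lower on day 1, and 6 were higher and 7 lower on day 7, beside 22% and 19.9%, and 30.9% and 28.4%, of all genes. Medians were 0.03 and -0.14, beside -0.01 and 0.03. *Tcirg1*, the subunit isoform of osteoclasts and immune cells, was higher on day 1 (log2 FC = 1.00, adjusted p = 0.000527) and day 7 (1.88, adjusted p = 8.8e-07). *Atp6v0d2*, an isoform of the same cells, was 5.64-fold higher on day 7 (2.50, adjusted p = 0.000513), at 0.57 to 1.71 TPM. *Atp6v1a*, a catalytic subunit present in most cells, was higher on both days (0.62, adjusted p = 0.00011, and 1.00, adjusted p = 4.17e-07). *Atp6v1g1* was lower on day 7 (-0.73, adjusted p = 9.21e-05), but not in log2(TPM + 1) (adjusted p = 0.282). The lower calls depend on the scale: on library sizes alone 11 were higher and 1 lower on day 7, beside 53.8% and 10.8% of all genes, and in log2(TPM + 1) 14 were higher and 0 lower, beside 61.6% and 6.68%.

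**Figure D4:**
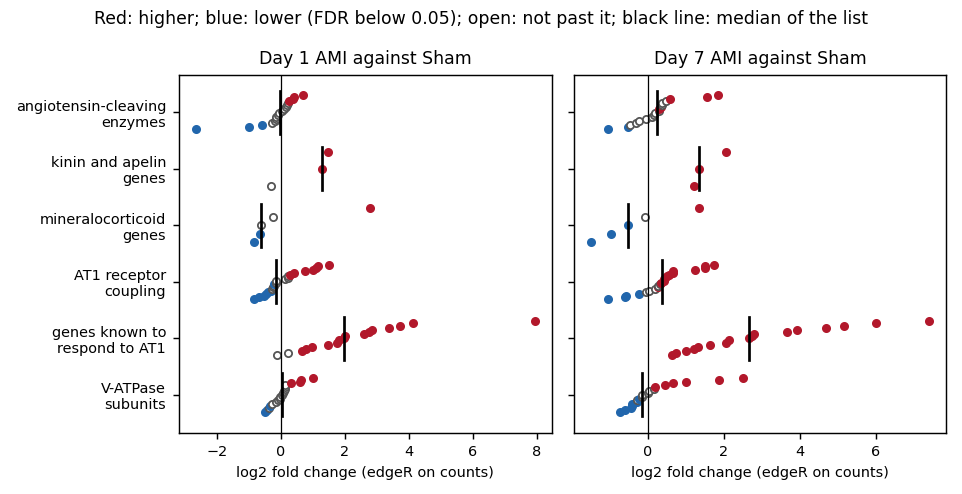
Log2 FC against sham on day 1 (left) and day 7 (right) for each tested gene of 6 lists; red and blue points passed a FDR below 0.05, open points did not, and the black line is the median of the list. The genes known to respond to the AT1 receptor lie to the right of 0 with a median of 2.66 on day 7, while the V-ATPase subunits spread on both sides.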

How the data were processed

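RNA-Seq of 12 whole hearts was re-analysed in 3 groups of 4, assigned by the labels. Reads (paired, 150 bases) had been trimmed by the authors with Cutadapt, mapped by STAR 2.4.0j to the Ensembl GRCm38 reference (mm10 in the submitters' processing notes, which also name CASAVA 1.8) and passed to RSEM. The authors deposited raw counts, whole numbers of reads per gene without normalization, and TPM from RSEM, which is per length of transcript. The counting tool, its strand, and its treatment of reads that map to several genes are not given in the sources used here. Of 53801 gene identifiers, 53620 are in GENCODE M21, which gave positions and transcripts.

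Counts were tested with edgeR 4.0.16 in R 4.3.3 (TMM, filterByExpr, quasi-likelihood, one fit of 3 groups) with Benjamini-Hochberg adjustment over 15306 genes, and the code was tested on simulated data. CPM was computed from the deposited counts and TMM factors, and log2 CPM used a prior count of 2. DESeq2 1.42.0, limma 3.58.1 on log2 TPM, other scalings, filters, a replicate block, and each heart left out were alternatives. For the lists of related genes, only library sizes and log2(TPM + 1) were tried, a choice made after the values were seen. Promoters came from RefSeq, where 8 of the 9 members matched. The labels give separate samples without saying whether they are separate mice, so p-values measure the spread between these samples. No pair of libraries of a group repeated another (chi-square per degree of freedom of at least 8.84). The members and lists were chosen with earlier results of these data known. A further gene and a ratio planned with it are not reported here. Named are all members, up to 4 changed genes per list, and the 3 genes most like each member, and a few further list genes were named after their values were seen.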

Additional observations from a re-analysis of the deposited data

How the results depend on the processing

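Results were recomputed under 11 alternatives on 12 hearts and with each of 12 hearts left out. DESeq2, on 12 hearts or on the groups compared, edgeR with DESeq2 size factors, and edgeR without mitochondrial genes kept each count of changed members within 1.5 times. The number of members changed at a FC of 2 or greater on day 1 against sham went from 0 to 1 on library sizes alone and in limma on log2(TPM + 0.1), and ran from 0 to 1 with a heart left out, the 1 (*Agt*) without Sham replicate 2. On day 7 against sham, 5 changed members became 3 on library sizes alone and in limma on log2(TPM + 1) without the filter, and the 2 at a FC of 2 or greater ran from 1 to 2 with a heart left out, with 1 without Sham replicate 2. Between day 7 and day 1, 3 changed members became 5 in limma on log2(TPM + 1), with *Mas1* and *Agtrap* added.

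Directions that reversed were those of *Agtrap* on day 7 against sham (0.18 on library sizes alone, 0.32 in limma on log2(TPM + 1) with and without the filter, 0.34 on log2(TPM + 0.1)) and of values that did not pass edgeR's test with TMM: *Mas1* on day 7 (0.34, 0.20, 0.38, and 0.20 under the same alternatives, 0.21 without Sham replicate 4, 0.06 without Day 7 AMI replicate 1), *Mas1* on day 1 without Sham replicate 4 (0.0024), and *Ace* on day 1 without Day 1 AMI replicate 2 (-0.011). With a heart left out these ran from -0.22 to 0.21, from -0.43 to 0.0024, and from -0.011 to 0.12. The cause was not tested. Replicate numbers did not pair hearts (12 same-number pairs, r from -0.24 to 0.23, 4 over 0.1), and the fit with a replicate block left the counts of changed members at 4, 5, and 3. Depth limits *Mas1*, with at most 25 counts in a library, and the 3 members at the floor.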
